A study of Homo sapiens with 2 samples.

Results

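Antiviral effector genes are the part of the interferon response that acts against viruses, and the set below also holds sensors, adaptors and regulators of that response. The set described here holds 51 human genes chosen by symbol, among them the OAS, IFIT, IFITM, MX, PARP and TRIM families, the cytosolic RNA sensors and the enzymes that attach the modifier ISG15. Of these, 49 were listed in the expression table and 46 averaged 1 FPKM or more across the pair of libraries, out of 10601 genes at that level. FPKM, fragments per kilobase of transcript scaled further to the mapped fragments of the library, is a relative level. Of the other members, OASL, DHX58 and LGALS3BP were below that mean, and ISG20 and IFI44L are not analysed here. Just inside the limit stood TRIM5 with a mean of 1.04 FPKM and IFI44 with 1.12 FPKM, and just outside it LGALS3BP with 0.968 FPKM and DHX58 with 0.571 FPKM.

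The study sequenced total RNA of THP-1, an established human acute myeloid leukaemia line of monocytic type. A control culture received DMSO, the solvent, and a treated culture was given OPA1, an agent known here only by that label, at 2 µM, each for 48 h. The series title places the agent in work on opioid receptor signalling and TET-dependent demethylation of DNA, and OPA1 here is a treatment and not the mitochondrial gene. Each group was 1 library of 1 cell line, so there is no replicate error, no test and no p-value, and every difference below is a difference between these 2 libraries.

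Interferons bind receptors whose JAK kinases phosphorylate STAT factors such as STAT2, which together with IRF9 switch on most antiviral genes through the interferon-stimulated response element. The effectors block viruses at many steps: IFITM proteins at entry, OAS enzymes, IFIT proteins and PKR at viral RNA and translation, MX GTPases at the nucleocapsid, and tetherin at release. Myeloid cells hold a basal level of many of these genes, which weak interferon signalling sustains.

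The listed FPKM values summed to 325059 under DMSO and 331515 under OPA1, and the quartiles of all log2 ratios of OPA1 over DMSO lay at -0.15 and 0.16. Log2 ratios are taken after adding 1 FPKM to each value, which makes differences of low genes smaller, and the thresholds used for counts, 25% (a log2 ratio of 0.32), 1.5-fold and 2-fold, refer to that scale. Folds quoted beside 1 gene are FPKM divided by FPKM, with nothing added. Of 9 monocytic markers 8 were listed, 4 of them higher and 4 lower under OPA1, while CD14 is not analysed here. LYZ was at 76.5 FPKM under DMSO and 91.0 FPKM under OPA1 and CD33 at 18.6 and 21.1 FPKM, whereas FCGR1A was at 54.9 and 47.2 FPKM. CD68 stood furthest from level, at 20.7 and 14.2 FPKM, and was the only marker at least 25% lower. Of 10 lymphoid, erythroid and epithelial markers 1 was listed, below a mean of 1 FPKM: CD79A was at 0.146 FPKM under DMSO and 0.638 FPKM under OPA1.

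Promoter sequence is shown for 6 members that differ in their levels below, since the response element is the feature these genes are known to share. The windows are from RefSeq on GRCh38.p14, 250 bases before to 50 bases after a start site, on the strand of the gene. Capitals mark the core of the element, searched on both strands as GAAA, any 2 bases and GAAA, so that it reads that way or as TTTC, 2 bases and TTTC. The first 3 genes, ISG15, IFITM1 and IFI6, were higher in the OPA1 library, and the last 3, IFIT1, IFIT5 and DTX3L, were level.
ISG15 (chr1:1013247-1013546, plus strand): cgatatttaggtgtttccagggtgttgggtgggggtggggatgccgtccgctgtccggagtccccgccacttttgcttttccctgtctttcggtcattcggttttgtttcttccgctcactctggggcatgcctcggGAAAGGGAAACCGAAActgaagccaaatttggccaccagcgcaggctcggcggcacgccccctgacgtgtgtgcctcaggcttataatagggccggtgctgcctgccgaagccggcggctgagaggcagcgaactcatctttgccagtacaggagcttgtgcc
IFITM1 (chr11:313790-314089, plus strand): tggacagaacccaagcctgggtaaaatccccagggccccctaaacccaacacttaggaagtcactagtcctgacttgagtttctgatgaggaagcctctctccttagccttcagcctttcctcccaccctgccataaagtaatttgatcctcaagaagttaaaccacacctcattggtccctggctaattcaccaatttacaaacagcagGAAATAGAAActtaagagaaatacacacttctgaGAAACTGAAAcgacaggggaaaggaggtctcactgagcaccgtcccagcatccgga
IFI6 (chr1:27672143-27672442, minus strand): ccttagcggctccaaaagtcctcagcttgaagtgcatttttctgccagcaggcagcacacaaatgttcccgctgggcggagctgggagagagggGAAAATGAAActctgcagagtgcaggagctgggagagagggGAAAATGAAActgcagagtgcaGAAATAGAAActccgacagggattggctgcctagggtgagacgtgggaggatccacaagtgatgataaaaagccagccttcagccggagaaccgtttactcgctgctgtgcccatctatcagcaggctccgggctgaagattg
IFIT1 (chr10:89392373-89392672, plus strand): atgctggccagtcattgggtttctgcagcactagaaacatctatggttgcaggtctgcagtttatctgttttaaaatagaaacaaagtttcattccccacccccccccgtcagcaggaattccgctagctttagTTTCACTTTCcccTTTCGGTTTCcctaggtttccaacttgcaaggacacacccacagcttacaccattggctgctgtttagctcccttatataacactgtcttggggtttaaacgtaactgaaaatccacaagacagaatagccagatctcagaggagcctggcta
IFIT5 (chr10:89414318-89414617, plus strand): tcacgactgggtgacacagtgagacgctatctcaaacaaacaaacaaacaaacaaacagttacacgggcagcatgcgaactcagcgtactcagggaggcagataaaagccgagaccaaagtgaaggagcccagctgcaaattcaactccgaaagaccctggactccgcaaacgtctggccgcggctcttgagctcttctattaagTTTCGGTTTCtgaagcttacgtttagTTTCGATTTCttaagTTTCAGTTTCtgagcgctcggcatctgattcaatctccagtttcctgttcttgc
DTX3L (chr3:122564088-122564387, plus strand): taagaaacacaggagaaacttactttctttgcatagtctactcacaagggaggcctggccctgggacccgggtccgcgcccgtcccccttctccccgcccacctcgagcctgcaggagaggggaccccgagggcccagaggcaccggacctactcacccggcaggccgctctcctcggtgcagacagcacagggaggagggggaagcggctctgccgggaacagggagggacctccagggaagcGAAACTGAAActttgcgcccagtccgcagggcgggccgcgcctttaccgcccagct
The ISG15 window holds overlapping cores that begin 113 and 107 bases before the start site, and the IFIT1 window holds cores at 116 and 103 bases. In IFI6 the cores begin 156, 115 and 93 bases before the start, in IFITM1 40 and 6 bases and in IFIT5 45, 19 and 4 bases.

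A window was found for 43 of the 51 members, DDX58 under its current symbol RIGI, with 57 windows in all because some genes have several start sites. The core occurred in 32 of these windows, or 56.1%, against 3.57% of all 35116 promoter windows of the same length. Some member windows overlap and hold the same core, as in PLSCR1 and IFI44 and between PARP9 and DTX3L, so they are not independent. The GAS motif, TTCNNNGAA, which STAT dimers are known to bind, occurred in 11 member windows, or 19.3%, against 7.66% of all windows, and in IFITM1 it overlaps a core. Members with the searched core in a window and those without it differed little in their middle value. Their median log2 ratios were 0.14 over 25 genes and 0.11 over 15. Genes without the searched core are not shown to lack a response element. The windows of OAS1, DDX58, XAF1, IFI16 and TRIM25 hold GAAACGAAA on either strand, a closer spacing that the search did not count. These medians and the counts below compare matches to the searched spacing only, and the effect of a response element was not tested. Of the 25 with a core 8 were at least 25% higher in the OPA1 library, and of the 15 without it 2 were. Among genes outside the set, 15.0% of the 313 with a core were at least 25% higher, against 12.2% of all kept genes with no core in a window. Several cores in a window occurred in 13 kept members, with a median log2 ratio of 0.10. Of these ISG15, IFI6, IFITM1 and OAS3 were at least 25% higher under OPA1 and TRIM26 was lower by that ratio. Of all kept genes with any core in a window, members included, 16.3% were at least 25% higher. The share for several cores was not computed, so no difference from all genes is read for these 13 members. Among the same 13, HERC5, IFIH1, IFIT1, IFIT3 and IFIT5 were within 0.1 log2 units of level, and BST2, TRIM21 and IFITM3 were higher by less than 25%. These matches describe letters in the windows and were not measured as binding.

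Most antiviral effector genes were slightly higher in the OPA1 library, and a minority stood further apart. Bulk RNA of a culture was measured, so more RNA per cell and more cells expressing a gene cannot be told apart. Of the 46 genes 35 had a log2 ratio above 0, or 76.1%, against 49.9% of all genes. The median was 0.12, or 1.08-fold, against 0.00 over all genes, and 14 members lay within 0.1 log2 units of level. At least 25% higher were 12 members, or 26.1%, against 12.6% of all genes, and at least 1.5-fold higher were 9, or 19.6%, against 5.43%. Both counts include IFI44, at 0.602 FPKM under DMSO and 1.64 FPKM under OPA1, which passed the mean limit only through its OPA1 value. TRIM26 alone had a log2 ratio of -0.32 or below, where 11.3% of all genes did, and 0 members were 1.5-fold lower, against 5.08%. PARP9 alone reached 2-fold, a share of 2.17% of the members against 1.97% of all genes, and 0 were 2-fold lower, against 1.99%. The FPKM of the 46 genes summed to 740 under DMSO and 855 under OPA1, or 0.228% and 0.258% of the listed total.

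**Figure D1:**
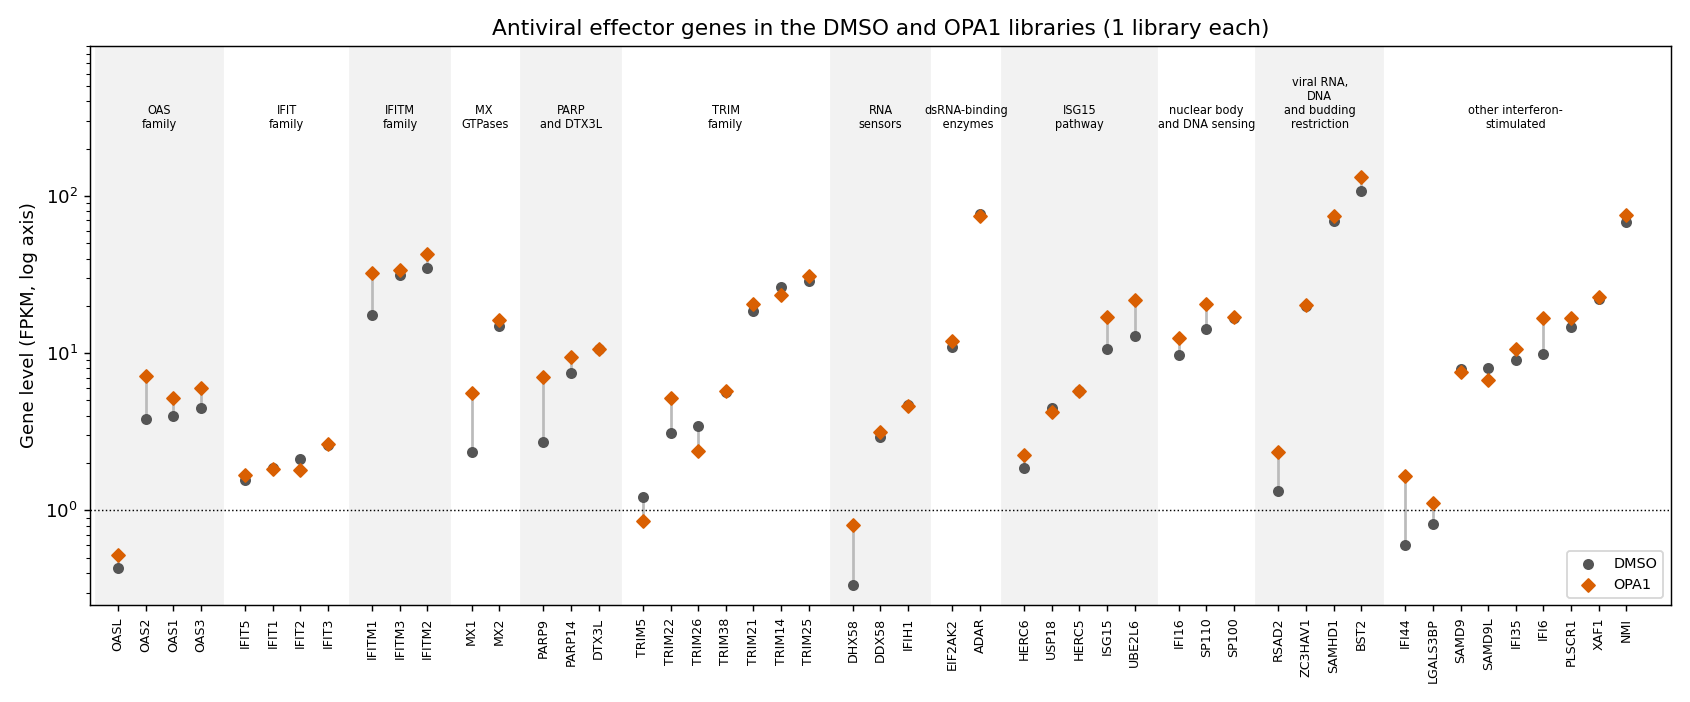
Level of each listed antiviral effector gene (FPKM, log axis) under DMSO (grey circles) and OPA1 (orange diamonds), 1 library each, grouped by family and ordered by the DMSO level. The dotted line marks 1 FPKM. IFIT1, IFIT3, IFIT5 and ADAR are nearly level, while MX1, PARP9, OAS2 and IFITM1 are separated.

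Counts beside the background are given by level, and with 11 to 19 members per group no difference between levels is read. Among members with a mean of 1 to 5 FPKM 10 of 16 had log2 ratios above 0, against 50.4% of all genes at that level, and 5 were at least 25% higher, against 17.1%. IFI44, kept only through its OPA1 value, is among those 5. Between 5 and 20 FPKM 16 of 19 were above 0, against 48.6%, and 6 were at least 25% higher, against 12.3%. At 20 FPKM or more 1 of 11 members was that much higher, IFITM1, against 8.09% of all genes, a share near the background. Even so 9 of these 11 had log2 ratios above 0, against 51.3% of genes at that level, with a median of 0.11.

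**Figure D2:**
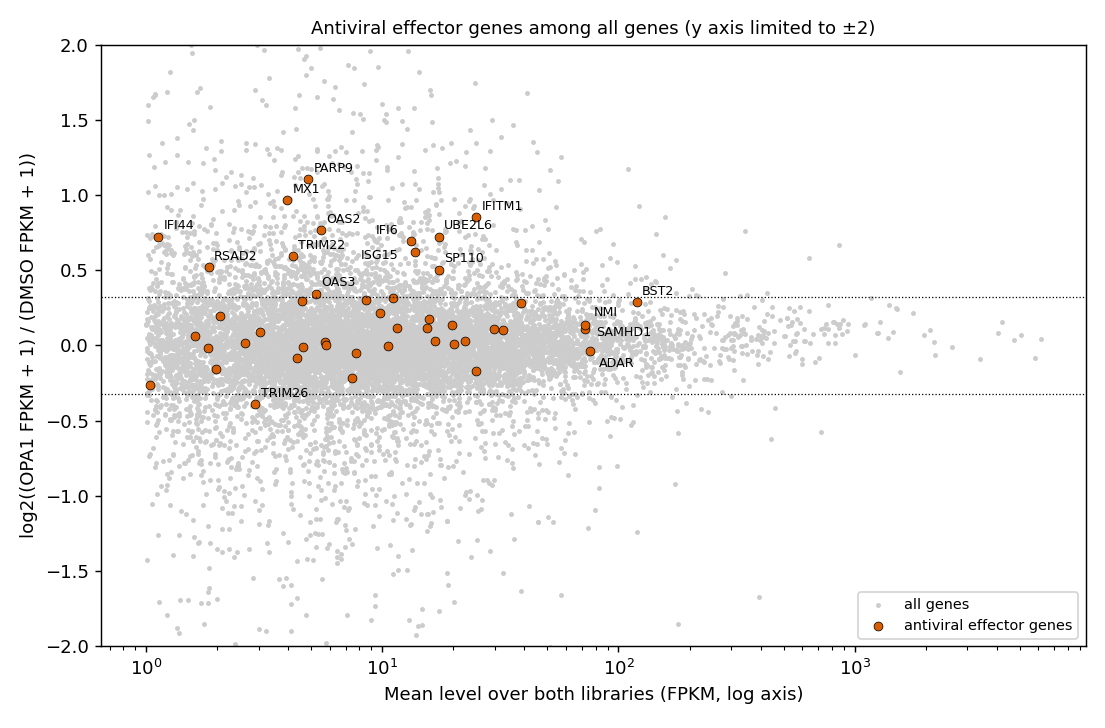
Log2 ratio of OPA1 over DMSO after adding 1 FPKM (y axis) against the mean level of both libraries in FPKM (log axis), with all genes in grey and the 46 members in orange. Dotted lines mark log2 ratios of 0.32 and -0.32. Named points are the 13 members beyond them and the 4 members at 50 FPKM or more.

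Entry is restricted by the IFITM proteins, small membrane proteins that hinder fusion of viral and cellular membranes. IFITM1, which acts mainly at the cell surface (hg19 chr11:313506-315272), was at 17.6 FPKM under DMSO and 32.5 FPKM under OPA1, or 1.85-fold higher. IFITM2 was at 34.8 and 42.5 FPKM and IFITM3, which acts in endosomes, at 31.2 and 33.6 FPKM. All were higher under OPA1, and IFITM1, the lowest of them under DMSO by a wide margin, stood close to IFITM3 under OPA1. The sum of the family was 1.30-fold higher. These genes lie within a few kilobases of each other on chromosome 11 and are similar in sequence, so reads may have been divided between them. IFITM2 also differed in its make-up, with IFITM2-202 at 22.3 and 12.0 FPKM and IFITM2-206 at 12.0 and 28.9 FPKM.

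The OAS enzymes sense double-stranded RNA and make oligoadenylates that activate RNase L. All measured members were higher in the OPA1 library. OAS2 was at 3.81 FPKM under DMSO and 7.17 FPKM under OPA1, or 1.88-fold higher, and its listed transcripts were each higher, OAS2-202 at 2.61 and 4.73 FPKM, OAS2-203 at 0.86 and 1.82 FPKM and OAS2-207 at 0.34 and 0.62 FPKM. OAS3 was at 4.49 and 5.97 FPKM and OAS1 at 4.01 and 5.16 FPKM. OAS2 was the lowest of the 3 under DMSO and the highest under OPA1. OASL, a relative without the enzymatic activity, was at 0.428 and 0.520 FPKM, below the limit. With 3 kept genes the OAS family had a median log2 ratio of 0.34, and their summed level was 1.49-fold higher.

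The IFIT family includes proteins that bind viral RNA lacking the marks of cellular mRNA. None of its 4 genes reached a log2 ratio of 0.32 in either direction. IFIT1 was at 1.85 FPKM under DMSO and 1.82 FPKM under OPA1, IFIT2 at 2.13 and 1.82 FPKM, IFIT3 at 2.59 and 2.63 FPKM and IFIT5 at 1.56 and 1.67 FPKM. The median log2 ratio was 0.00 and the sum was 0.976 of the DMSO sum. All lie in a single cluster on chromosome 10 and were low in both libraries. The level sum of IFIT3 included IFIT3-201, 0 FPKM as listed under DMSO and at 0.58 FPKM under OPA1, and IFIT3-202 at 2.59 and 2.05 FPKM. RSAD2, or viperin, which makes a chain-terminating nucleotide, was as low as the IFIT genes but differed, at 1.33 FPKM under DMSO and 2.35 FPKM under OPA1. Most of that difference lay in RSAD2-202, at 0.056 and 0.758 FPKM, while RSAD2-201 was at 1.27 and 1.59 FPKM, and with RSAD2-201 alone the log2 ratio was 0.19, below the 25% limit. IFI44, a gene of less settled function, was likewise low, at 0.602 and 1.64 FPKM.

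The MX proteins are dynamin-like GTPases that trap viral nucleocapsids, MX1 being known for influenza and related viruses and MX2 for HIV. MX1 (hg19 chr21:42798094-42831141) was at 2.37 FPKM under DMSO and 5.57 FPKM under OPA1, or 2.35-fold higher. Its main transcript MX1-202 was at 2.37 and 4.95 FPKM, and MX1-207 was 0 FPKM as listed under DMSO and at 0.62 FPKM under OPA1. MX2, its neighbour on chromosome 21 and several times more abundant under DMSO, was at 14.8 and 16.2 FPKM, and each of its listed transcripts was level or slightly higher.

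ISG15 is a ubiquitin-like protein that is attached to viral and cellular proteins by UBE2L6, its conjugating enzyme, and HERC5, its ligase, and is removed by USP18. The modifier and its conjugating enzyme were higher under OPA1, and the ligase and protease were level. ISG15 (hg19 chr1:948803-949920) was at 10.6 FPKM under DMSO and 16.9 FPKM under OPA1, or 1.59-fold higher. UBE2L6 (hg19 chr11:57319135-57335280) was at 12.8 and 21.8 FPKM, or 1.70-fold higher. HERC5 was at 5.75 and 5.76 FPKM, and USP18, which also restrains the type I interferon receptor, at 4.51 and 4.20 FPKM. HERC6, the main ligase in mice, was at 1.85 and 2.26 FPKM. UBA7, the activating enzyme of ISG15 and not a member of the set, was at 12.3 and 15.5 FPKM. Each of these members had 1 listed transcript, so their values do not depend on how reads were divided among isoforms listed in the table.

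PARP9 and PARP14 are ADP-ribosyltransferases of the macrodomain class, and DTX3L is the ubiquitin ligase that works as a complex with PARP9. PARP9 was at 2.72 FPKM under DMSO and 7.01 FPKM under OPA1, PARP14 at 7.51 and 9.50 FPKM, and DTX3L was level at 10.6 FPKM in both. PARP9 and DTX3L are read in opposite directions from a shared promoter, and the core in the DTX3L window, 6 bases before its start, is the same 10 bases (GRCh38.p14 chr3:122564332-122564341) as the core 41 bases before a PARP9 start. Their listed loci overlap by 340 bases, and without a statement on strand reads in the overlap cannot be told apart. The higher PARP9 sum came from PARP9-204, 0 FPKM as listed under DMSO and at 5.13 FPKM under OPA1, whereas PARP9-202 was at 2.00 and 1.86 FPKM and PARP9-201 at 0.72 and 0.03 FPKM. The part of isoform assignment in the PARP9 difference was not tested.

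The RNA sensors kept in the analysis and the enzymes that bind double-stranded RNA were close to level. DDX58, or RIG-I, the sensor of RNA with triphosphate ends, was at 2.91 FPKM under DMSO and 3.15 FPKM under OPA1, and IFIH1, or MDA5, the sensor of long double-stranded RNA, at 4.65 and 4.62 FPKM. DHX58, or LGP2, which assists MDA5, was at 0.335 and 0.806 FPKM, 2.40-fold higher under OPA1 but too low to be kept. EIF2AK2, or PKR, the kinase that stops translation on binding double-stranded RNA, was at 11.0 and 12.0 FPKM. ADAR, which edits adenosines in double-stranded RNA, was at 76.4 and 74.5 FPKM. None of the 4 kept genes in these groups reached a log2 ratio of 0.32 in either direction. IFI16, a DNA sensor, was higher, at 9.80 and 12.5 FPKM, just under the 25% limit with a log2 ratio of 0.317, and both of its listed transcripts were higher. Of the nuclear body proteins, SP110 was at 14.2 and 20.6 FPKM, or 1.45-fold higher, and SP100 level at 16.6 and 17.0 FPKM.

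The genes of the TRIM family went both ways. TRIM22, a restriction factor with 1 listed transcript, was at 3.12 FPKM under DMSO and 5.22 FPKM under OPA1, or 1.67-fold higher. Its neighbour TRIM5, which recognises retroviral capsids and is read from the opposite strand, was at 1.22 and 0.850 FPKM. TRIM26 was at 3.43 and 2.38 FPKM, but TRIM26-266 was at 2.31 FPKM under DMSO and 0 FPKM as listed under OPA1, while TRIM26-263 was at 1.11 and 1.71 FPKM and TRIM26-268 at 0.01 and 0.67 FPKM, so the lower sum rests on a transcript listed at 0. The remaining genes of the family differed little. TRIM14, an adaptor of the MAVS pathway, was at 26.4 and 23.4 FPKM, and TRIM21, the cytosolic antibody receptor, at 18.7 and 20.6 FPKM. TRIM25, a ligase of RIG-I signalling, was at 28.6 and 30.8 FPKM, and TRIM38, a regulator of Toll-like receptor signalling, at 5.67 and 5.78 FPKM. Across the 7 TRIM genes 4 were higher and 3 lower, and the median log2 ratio was 0.02.

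The most abundant members were close to level or modestly higher. BST2, or tetherin, which holds budding virions on the cell surface, was the highest of all members at 108 FPKM under DMSO and 132 FPKM under OPA1, a difference of 24.1 FPKM and a fold of 1.22. SAMHD1, which depletes the nucleotides needed for reverse transcription, was at 69.5 and 75.1 FPKM, and NMI, a partner of STAT proteins, at 68.7 and 75.6 FPKM. All were higher under OPA1 by less than 25%. ZC3HAV1, or ZAP, which binds CpG-rich viral RNA, was level at 20.1 and 20.2 FPKM, as was XAF1, an antagonist of the apoptosis inhibitor XIAP, at 22.2 and 22.7 FPKM. IFI6, an inducible membrane protein, was 1.68-fold higher at 9.92 and 16.6 FPKM, and each of its listed transcripts was higher, IFI6-202 at 7.65 and 12.1 FPKM, IFI6-203 at 1.96 and 3.58 FPKM and IFI6-201 at 0.31 and 0.92 FPKM. PLSCR1, a phospholipid scramblase, was at 14.7 and 16.7 FPKM, IFI35, which binds NMI, at 9.01 and 10.6 FPKM, and LGALS3BP, a secreted glycoprotein below the level limit, at 0.823 and 1.11 FPKM. SAMD9 and SAMD9L, neighbours on chromosome 7 that restrict poxviruses, were at 7.91 and 7.60 FPKM and at 8.05 and 6.80 FPKM, both lower under OPA1. The SAMD9L direction depends on how its transcripts are combined: with its most abundant transcript alone the log2 ratio was 0.99 in place of -0.22.

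**Figure D3:**
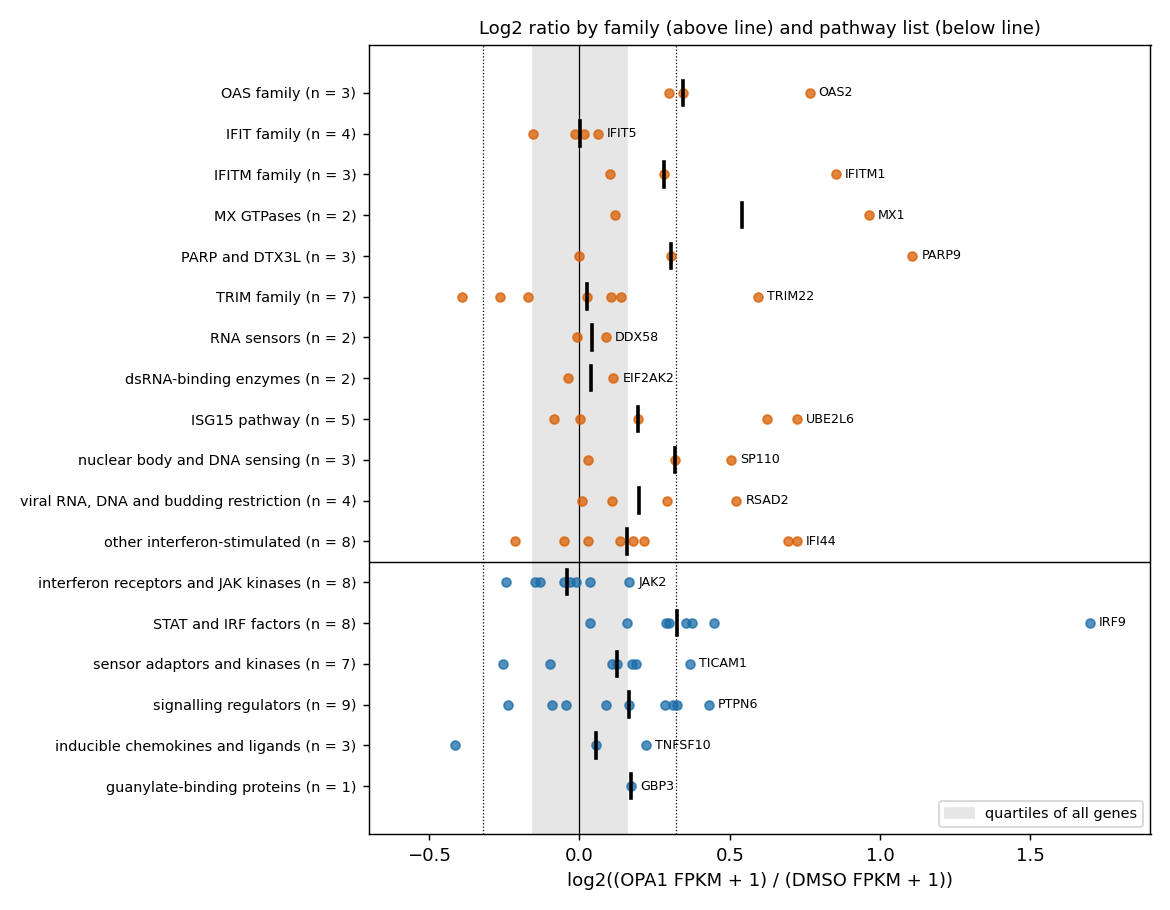
Log2 ratio of OPA1 over DMSO after adding 1 FPKM for each gene averaging 1 FPKM or more, by family of antiviral effectors (orange) and by list of other interferon pathway genes (blue). Black bars are medians, the grey band spans the quartiles of all genes (-0.15 to 0.16), dotted lines mark log2 ratios of 0.32 and -0.32, and the rightmost gene is named. In the IFITM, MX, PARP and TRIM rows a single gene stands to the right of the others, and the IFIT row is centred on 0.

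Neighbouring members of a family were not uniform. MX1 differed and MX2 was nearly level, and PARP9 differed and DTX3L did not. The PARP9 difference rested on PARP9-204, 0 FPKM as listed under DMSO and at 5.13 FPKM under OPA1. TRIM22 was higher and TRIM5 lower, and SP110 was higher and SP100 level. The OAS cluster was higher throughout, with log2 ratios of 0.30, 0.34 and 0.77 along chromosome 12 for OAS1, OAS3 and OAS2. Within the IFIT cluster log2 ratios ran from -0.15 for IFIT2 to 0.06 for IFIT5. Only IFIT2 lay beyond 0.1 log2 units from level.

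Isoform make-up was steady in most members and shifted in some. Of the 46 genes 19 had 1 listed transcript, and in 9 over 10% of the FPKM moved between listed transcripts from library to library. The 37 genes with steady shares had a median log2 ratio of 0.11, against 0.00 over all genes with steady shares. Of the 37, 28 were higher, where 49.9% of all genes were, whatever their shares. At least 25% higher were 8, where 8.37% of all genes with steady shares were. Those 8 were ISG15, UBE2L6, IFITM1, IFI6, OAS2, OAS3, TRIM22 and IFI44, the last of them kept only through its OPA1 value. The other 4 of the 12, PARP9, MX1, SP110 and RSAD2, were among the 9 with shifted shares, a class in which 19% of all genes were at least 25% higher. SP110-203 was at 1.95 FPKM under DMSO and 0 FPKM as listed under OPA1, while SP110-202 was at 6.70 and 11.1 FPKM and SP110-204 at 4.29 and 6.33 FPKM. TRIM25-202 was at 2.00 FPKM under DMSO and 0 FPKM as listed under OPA1, against TRIM25-201 at 26.6 and 30.8 FPKM. In SAMD9L the main transcript differed between libraries, with SAMD9L-201 at 4.67 and 1.36 FPKM and SAMD9L-204 at 2.07 and 5.07 FPKM.

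**Figure D4:**
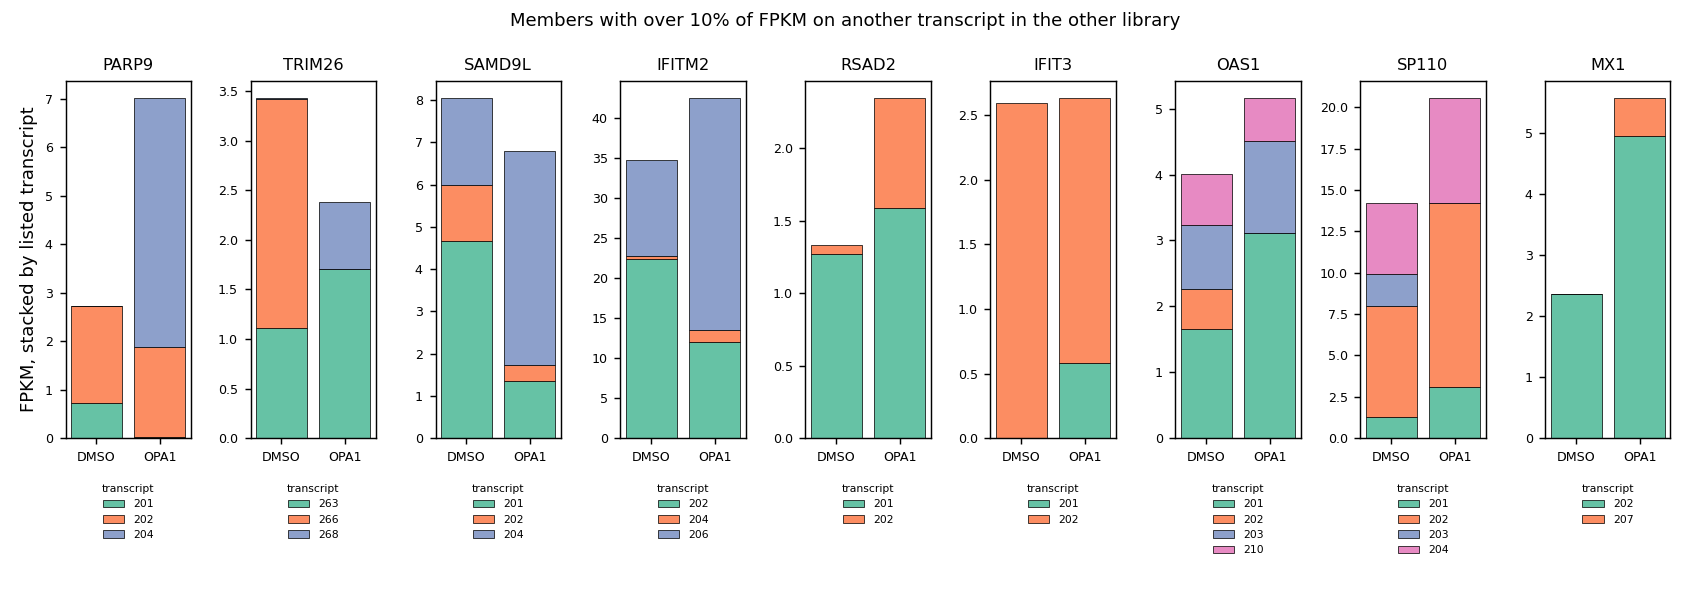
FPKM of the 9 members in which over 10% of the level moved between listed transcripts from library to library, stacked by transcript (colours, numbered as in the transcript names) for the DMSO and OPA1 libraries. Each panel has its own axis from 0. PARP9-204 is 0 FPKM as listed under DMSO and makes up most of PARP9 under OPA1, and TRIM26-266 is 0 FPKM as listed under OPA1.

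Other genes of the interferon pathway were grouped by role, and their counts stand beside 49.9% of all genes with a log2 ratio above 0 and 12.6% at least 25% higher. Of 8 receptor and JAK genes 2 were higher and 6 lower, none past a log2 ratio of 0.32 in size, with a median log2 ratio of -0.04. IFNAR1 was at 14.2 FPKM under DMSO and 13.8 FPKM under OPA1. All 8 STAT and IRF genes described were higher, 4 of them by at least 25%, with a median log2 ratio of 0.33: IRF9 was at 0.832 and 4.94 FPKM, IRF3 at 16.6 and 23.0 FPKM, IRF7 at 1.07 and 1.69 FPKM, and STAT2, the partner of IRF9, at 4.62 and 6.18 FPKM. The IRF9 sum under OPA1 rested on IRF9-202, at 0.07 and 4.94 FPKM, while IRF9-201 was at 0.76 FPKM and 0 FPKM as listed. IRF9 too passed the mean limit only through its OPA1 value. STAT2-210 was at 2.38 and 5.49 FPKM, while STAT2-201 was at 1.63 and 0.51 FPKM and STAT2-202 at 0.62 and 0.18 FPKM. The part of isoform assignment in the IRF9 and STAT2 differences was not tested. This list is short, and it was chosen with earlier results of these data known. Of 7 sensor adaptors and kinases 5 were higher, which in so short a list is not read as a difference from all genes, and TICAM1, the adaptor of TLR3, was at 2.43 and 3.43 FPKM. Of 9 regulators of signalling and ISG15 activation 6 were higher, which is likewise not read as a difference, among them the phosphatase PTPN6 at 19.2 and 26.2 FPKM and SOCS3, a feedback inhibitor, at 2.78 and 3.73 FPKM. Of the inducible ligands 3 were measured, and TNFSF13B, the B cell factor BAFF, was lower at 1.87 and 1.15 FPKM. The interferon genes themselves, 7 in the list, are not analysed here.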

How the data were processed

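The authors' table gives FPKM per protein-coding transcript, per the file headers, and HISAT, StringTie and edgeR on hg19 are given by the submitters' processing notes without roles or versions. Strandedness is not given in the sources used here. Each listed transcript reaches 0.5 FPKM in at least 1 library, so gene sums leave out lower transcripts. Read depth is unknown. At the best candidate step for 1 read, 21.3% (DMSO) and 15.3% (OPA1) of 300 low values were within 0.1 of a whole number. The strength of alignment to a step was 0.182 under DMSO and 0.193 under OPA1. The strongest of 20 copies with randomly shifted values reached 0.213 and 0.185. No step was taken as found, so no count test was run and no counting interval can be given. An exact 0 may be a failed estimate.

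Transcripts were summed per gene symbol, genes averaging 1 FPKM or more were kept, and log2 ratios were taken after adding 1 FPKM, with pandas 2.3.3 and numpy 2.4.6 in Python 3.11.15 and drawn in matplotlib 3.10.9. The functions were tested on simulated data. Members and lists were chosen with earlier results of these data known. All members are named, and of each pathway list up to 3 genes per direction with a log2 ratio of at least 0.32 in size. IFNAR1, STAT2, UBA7, the markers, transcripts of members with shifted shares and transcripts of STAT2 and IRF9 were named after their values were seen. Share shift is 0.5 times the summed absolute difference between libraries in the percentage each listed transcript gives to its gene. Promoter windows came from RefSeq (GRCh38.p14), matched by symbol or synonym, and loci from the table (hg19). Alternatives changed the pseudocount, minimum mean, scaling and use of isoforms. A pathway gene and a marker gene are not reported here and are left out of the list counts.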

Additional observations from a re-analysis of the deposited data

How the results depend on the processing

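Each group was 1 library, so no replicate could be left out. No paired analysis was possible because each group holds 1 library. A log2 value was taken as moved when it shifted by 0.1 or more, and a count when it changed by over 1.5 times. The median log2 ratio of the members stayed between 0.09 and 0.18 under all 9 alternatives. With a pseudocount of 0.1 FPKM 2 members were at a log2 ratio of -0.32 or below and the MX median was 0.66. With each library rescaled to a common sum 2 members were at a log2 ratio of -0.32 or below. In the main analysis 11.3% of all genes were. That share was not computed under the alternatives, so these counts of lower members are not read as differences from all genes. With a minimum mean of 5 FPKM 30 members were left, 25 of them higher and 5 lower. Log2 ratios were above 0 in 48.6% of all genes at 5 to 20 FPKM and 51.3% at 20 FPKM or more. At least 25% higher were 7, and lower by that ratio were 0. Of all genes, 12.3% at 5 to 20 FPKM and 8.09% at 20 FPKM or more were at least 25% higher. Medians with this minimum were 0.56 for OAS, 0.12 for MX, 0.15 for PARP and DTX3L and 0.62 for the ISG15 pathway. They rest on OAS2 and OAS3, on MX2 alone, on PARP14 and DTX3L, and on ISG15, UBE2L6 and HERC5. With the most abundant transcript of each gene 0 members were at a log2 ratio of -0.32 or below, TRIM26 turned to 0.36, SAMD9L from -0.22 to 0.99 and IFIT3 from 0.02 to -0.23, RSAD2 fell below the 25% limit at 0.19, and medians were 0.63 for OAS, 0.83 for IFITM, 0.16 for TRIM and 0.31 for the other interferon-stimulated genes. Among the 37 members with steady transcript shares 0 were at a log2 ratio of -0.32 or below. Medians of these 37 were 0.56 for OAS (OAS2 and OAS3), 0.48 for IFITM (IFITM1 and IFITM3) and 0.12 for MX (MX2 alone). They were 0.15 for PARP and DTX3L (PARP14 and DTX3L) and 0.17 for the nuclear body and DNA sensing genes (SP100 and IFI16). Among the 19 members with 1 listed transcript 14 were higher and 5 lower, where the median log2 ratio over all such genes was 0.004. At least 25% higher were 5, IFI44 among them, against 10.1% of all genes with 1 listed transcript, and 0 were lower by that ratio. Medians of these 19 members were 0.15 for PARP and DTX3L (PARP14 and DTX3L) and 0.31 for TRIM (TRIM22 and TRIM38). For the other interferon-stimulated genes (IFI44, XAF1 and SAMD9) the median was 0.029. Under the higher minimum mean and the isoform restrictions fewer genes enter by construction, and for the other shifts the cause was not tested. Single-gene ratios moved in 13 members with the most abundant transcript, in 8 with the smaller pseudocount and in 6 with rescaling. Another sign was found in 4 members with the most abundant transcript and in 3 with rescaling (HERC5, IFIT3 and ZC3HAV1), the last 3 being at 0.02 or less in size before rescaling.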
